A study of Mus musculus with 9 samples.

Results

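Glycolysis and its regulator Hif1a were followed through 10 genes: Hif1a, the glucose transporter genes Slc2a1 and Slc2a3, the hexokinase genes Hk2 and Hk3, Pfkfb3, Gapdh, Pgk1, Eno1 and Ldha. The 10 genes were taken by name from 23337 genes in the count files. Of these, 9 passed the filter on low counts and were among 12553 genes tested; Eno1 was listed at 0 counts in each of the 9 libraries. RNA was sequenced from CD11b+ bone marrow cells of male C57BL/6 mice, 1 library per mouse and 3 mice per group. PBS mice received 100 µl of PBS by tail vein on days 1, 3 and 5. EnzR EVs mice received 10 µg of extracellular vesicle protein in 100 µl on the same days; the vesicles, called exosomes in the labels, came from enzalutamide-resistant human prostate cancer cells in culture. EnzR EVs + HDL NPs mice also received high-density lipoprotein-like nanoparticles in 100 µl on days 0, 2 and 4, at a concentration that the labels and the study's methods state differently, so no dose is given here. No group received the nanoparticles without vesicles, and neither PBS nor vesicle mice received a sham injection on the nanoparticle days as far as the labels say, so the effect of nanoparticles alone cannot be read from these groups. The mice carried no tumour and no genetic change is given for them.

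Glycolysis breaks glucose down to pyruvate in the cytosol and yields ATP without oxygen, and lactate dehydrogenase then turns pyruvate into lactate and renews the NAD+ that the pathway needs. HIF-1α, the product of Hif1a, is the oxygen-sensitive subunit of a transcription factor that binds with ARNT to short DNA elements and is known to raise the transcription of glucose transporters and of most glycolytic enzymes; its abundance is mainly set by protein breakdown, which RNA levels do not show. Neutrophils and their precursors, the most frequent CD11b+ cells of the marrow, are known to depend strongly on glycolysis.

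The sequence element bound by HIF has a core of ACGTG or GCGTG. The stretches just before a RefSeq start of transcription are shown for Ldha, Slc2a1, Hif1a itself and Pfkfb3. By the GENCODE spans, the Ldha, Hif1a and Pfkfb3 stretches lie inside the gene, and the Slc2a1 stretch crosses the first base of the gene. GENCODE thus places a start further upstream for each of them. In EnzR EVs + HDL NPs against EnzR EVs, Ldha and Slc2a1 were lower without overlap of the groups. Pfkfb3 overlapped there, with a log2 fold change above 0 that changed sign under some other settings. No adjusted p of these genes was under 0.05 in edgeR. Each stretch is the 110 bases before the RefSeq start on GRCm38.p6, the mm10 assembly, written 5′ to 3′ on the strand of the gene, and the capitals mark a core on either strand.
Ldha, chr7:46845694-46845803, + strand: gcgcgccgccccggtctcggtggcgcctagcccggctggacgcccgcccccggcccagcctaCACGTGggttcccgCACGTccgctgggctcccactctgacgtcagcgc
Slc2a1, chr4:119108635-119108744, + strand: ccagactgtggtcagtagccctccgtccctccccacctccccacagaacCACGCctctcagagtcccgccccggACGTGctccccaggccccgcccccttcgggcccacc
Hif1a, chr12:73907757-73907866, + strand: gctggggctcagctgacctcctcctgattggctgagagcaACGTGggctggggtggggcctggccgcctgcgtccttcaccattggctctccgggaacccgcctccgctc
Pfkfb3, chr2:11553930-11554039, - strand: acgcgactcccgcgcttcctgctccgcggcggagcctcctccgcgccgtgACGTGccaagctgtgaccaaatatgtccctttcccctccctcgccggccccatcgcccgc

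The Ldha stretch held CACGTG, which reads as ACGTG on both strands and was counted on each, from 48 to 43 bases before the start, and CACGT, which is ACGTG on the other strand, from 34 to 30 bases before it. The Slc2a1 stretch held ACGTG from 36 to 32 bases before the start and CACGC, the other strand of GCGTG, from 61 to 57 bases before it. Over the full 250 bases before the start, 13 windows were matched to 9 of the 10 genes by symbol; the gene without a window was Slc2a3. All 13 windows held ACGTG or GCGTG on either strand, against 38.6% of 32851 windows of the same length, and 8 windows of 7 genes held ACGTG, against 16.6%. The windows of these genes had a median GC content of 66.4% and the windows of all genes 52.4%. Both cores contain CG, and the part of base composition in these shares was not tested. A match of letters is not a bound site, and binding was not measured.

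The 3 libraries with the highest share of counts on Rn45s, the precursor of ribosomal RNA, stood apart and bear on several results below. Rn45s took 20.3% of the counts in PBS replicate 1, 42.7% in EnzR EVs replicate 1 and 14.2% in EnzR EVs replicate 3, against 0.657% to 2.87% in the other 6 libraries. The same 3 libraries had the lowest totals, 2575776 to 8554487 counts against 13231038 to 18110561. None of the EnzR EVs + HDL NPs libraries was among them. Itgam, which encodes CD11b, was at 1389 to 2006 CPM in all 9 libraries. The summed level of 11 neutrophil markers was 32390 to 68382 CPM in these 3 libraries and 83231 to 146426 CPM in the other 6, and without S100a8 and S100a9, the abundant genes of the calcium-binding protein calprotectin, the sums overlapped, at 28415 to 48152 against 39833 to 56756 CPM. Of the 11 markers, 3 (S100a8, S100a9 and Mmp8) were below the other 6 libraries in all 3, 7 overlapped, and Mpo, a gene of early neutrophil granules, was above, at 1189 to 1673 against 439 to 1065 CPM. Markers of B cells summed to 7.82 to 23.8 CPM and markers of T and NK cells to 31.6 to 80.7 CPM. Levels are CPM, the counts of a gene relative to its library total, scaled by TMM factors, and in bulk RNA fewer cells of a type and less RNA per cell cannot be told apart.

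Per kilobase of transcript, the 9 detected genes covered a wide range. Averaged over the 9 libraries, Ldha was at 239 CPM per kb, Hk3 at 197 CPM per kb and Slc2a3 at 180 CPM per kb, and then Hk2 at 39.1, Hif1a at 27.2, Pfkfb3 at 23.9 and Slc2a1 at 9.56 CPM per kb. Pgk1 at 7.94 CPM per kb and Gapdh at 6.59 CPM per kb came last. Over the 9 libraries the ranges of Ldha, Hk3 and Slc2a3 overlapped with each other, as did those of Hif1a with Hk2 and Pfkfb3. So did those of Pfkfb3 with Slc2a1, and of Slc2a1 with Pgk1 and Gapdh. Within libraries, Hk3 was above Slc2a3, Pfkfb3 above Slc2a1, and Slc2a1 above Gapdh in 8 of 9. Ldha was above Slc2a3 in 6 and above Hk3 in 4, Hif1a above Pfkfb3 in 4, and Slc2a1 above Pgk1 in 5. Hk2 was above Hif1a and above Pfkfb3 in each of the 9 libraries. Hk3, the myeloid hexokinase isoform, and Slc2a3, which encodes the high-affinity neuronal and leukocyte transporter GLUT3, thus stood above their paralogues Hk2 and Slc2a1, the gene of the widespread transporter GLUT1.

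The low levels of Gapdh and Pgk1, which encode enzymes of the payoff phase, and the zero of Eno1, which encodes enolase, have to be read with their sequence copies in view. Of all windows of 75 bases, the read length, 80.3% of the Gapdh transcript, 67.5% of the Pgk1 transcript and 65.4% of the Eno1 transcript occur exactly in a transcript of another gene. For Gapdh these were 126 other genes, 115 of them annotated as pseudogenes. The share was 5.38% for Ldha, 5.68% for Hif1a, 0.973% for Slc2a1 and 0 for Slc2a3, Hk2, Hk3 and Pfkfb3. How reads with several matches were counted is not given in the sources used here, and the part of shared sequence in the levels of Gapdh, Pgk1 and Eno1 was not tested; these 3 genes are therefore uncertain. A count of 0 allows Eno1 up to 3 counts per library, which is 0.166 to 1.16 CPM before TMM scaling, by counting error alone.

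**Figure D1:**
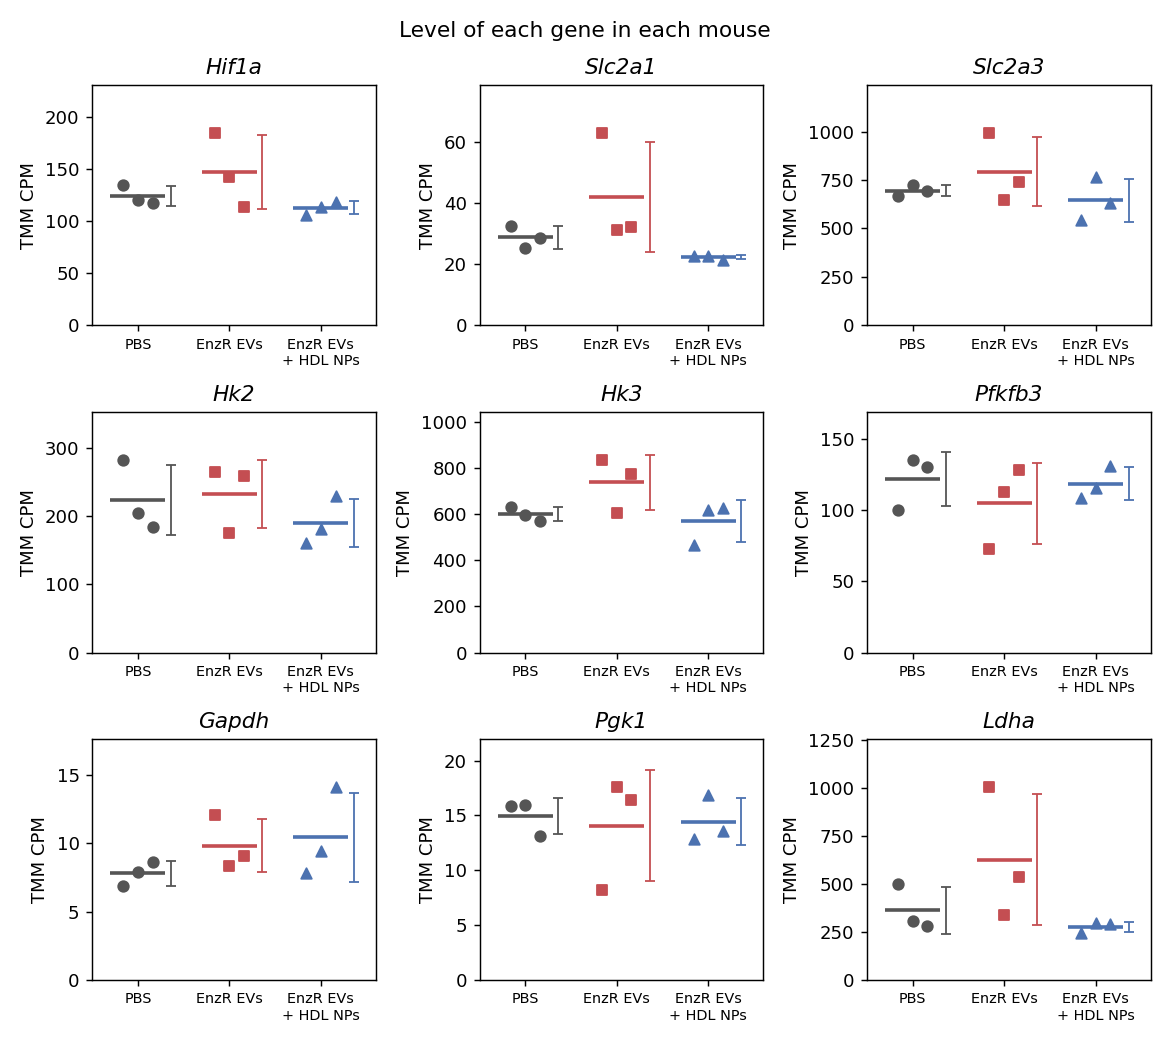
Level in TMM CPM (linear axis from 0) of the 9 detected genes in each of 3 PBS, 3 EnzR EVs and 3 EnzR EVs + HDL NPs mice, with the mean (bar) and SD (whisker). EnzR EVs replicate 1, the leftmost square in each panel, is the highest of all 9 libraries for Hif1a, Slc2a1, Slc2a3, Hk3 and Ldha, and the 3 EnzR EVs + HDL NPs mice lie below the 3 EnzR EVs mice for Slc2a1 and Ldha.

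Hif1a (ENSMUSG00000021109.13, chr12:73901375-73947530, 15 exons) was at 135, 120.4 and 118 CPM in PBS mice, at 185, 143 and 114 CPM in EnzR EVs mice and at 106, 114 and 119 CPM in EnzR EVs + HDL NPs mice. The 3 groups overlapped, and 1 vesicle-treated mouse lay above the rest. The log2 fold change was 0.24 (SE 0.184, 95% interval -0.17 to 0.64) with EnzR EVs against PBS. With nanoparticles added it was -0.14 (-0.54 to 0.27) against PBS and -0.37 (-0.78 to 0.04) against EnzR EVs alone. The adjusted p of edgeR was 0.928, 1.00 and 0.461 in this order. Hif1a RNA had an SD of log2 CPM over the 9 libraries of 0.242, against a median of 0.379 over all tested genes. Those genes were of all levels, and genes at the level of Hif1a were not compared. Its highest library exceeded its lowest 1.74-fold.

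Of the glucose transporter genes, only Slc2a1 had groups that did not overlap, and both genes were highest in EnzR EVs replicate 1. Slc2a1 (ENSMUSG00000028645.11, chr4:119108711-119137983) was at 32.7, 25.3 and 28.5 CPM in PBS mice, at 63.1, 31.5 and 32.3 CPM in EnzR EVs mice and at 22.9, 22.8 and 21.6 CPM in EnzR EVs + HDL NPs mice. Every mouse given nanoparticles with vesicles was below every mouse of either other group, while the PBS and EnzR EVs mice overlapped. The log2 fold change of Slc2a1 was -0.87 (SE 0.260, 95% interval -1.45 to -0.29) against EnzR EVs, with an unadjusted p of 0.0069 that ranked 59 of 12553 genes and an adjusted p of 0.461. Against PBS it was -0.36 (95% interval -0.92 to 0.21, adjusted p = 1.00), and EnzR EVs against PBS gave 0.51 (SE 0.260, -0.06 to 1.09, adjusted p = 0.928), which was 0.15 without EnzR EVs replicate 1. The two-sided exact permutation test gave 0.1, the smallest p that 3 against 3 mice can give, for both comparisons in which the groups did not overlap.

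Slc2a3 (ENSMUSG00000003153.10, chr6:122727809-122801640) was at 669.5, 725 and 693 CPM in PBS mice, at 992, 646 and 740.1 CPM in EnzR EVs mice and at 543, 763 and 631 CPM in EnzR EVs + HDL NPs mice. All groups overlapped. The log2 fold changes lay between -0.29 and 0.19, and their 95% intervals ran from -0.74 to 0.63 over the 3 comparisons. Within a library, the log2 ratio of Slc2a3 to Slc2a1 counts does not depend on the scaling between libraries. It was 4.83 ± 0.248 (SD, n = 3) with EnzR EVs + HDL NPs, 4.28 ± 0.280 with EnzR EVs and 4.60 ± 0.245 with PBS. The first 2 groups differed by 0.55 and did not overlap (exact permutation p = 0.1, adjusted p = 0.60 over 18 ratio tests).

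Hexokinases trap glucose in the cell by phosphorylation. Hk2 (ENSMUSG00000000628.10, chr6:82725025-82774454) was at 282, 205 and 185 CPM with PBS, at 264, 175 and 259 CPM with EnzR EVs and at 161, 181 and 229 CPM with EnzR EVs + HDL NPs. Hk3 (ENSMUSG00000025877.14, chr13:55005985-55021385) was at 632, 595 and 571 CPM with PBS, at 834, 605 and 775 CPM with EnzR EVs and at 464, 617 and 627 CPM with EnzR EVs + HDL NPs. Both genes overlapped between all groups. The largest log2 fold changes were -0.37 for Hk3 (SE 0.185, 95% interval -0.78 to 0.03) and -0.29 for Hk2 (SE 0.230, -0.80 to 0.22), each in EnzR EVs + HDL NPs against EnzR EVs, with adjusted p = 0.461 and 0.575. Hk1, the widespread paralogue, was at 145 ± 14.5, 176 ± 33.0 and 145 ± 18.6 CPM (SD, n = 3) in the PBS, EnzR EVs and EnzR EVs + HDL NPs groups. The log2 ratio of Hk3 to Hk1 differed by at most 0.10 between groups (3 comparisons, exact permutation p from 0.5 to 0.9).

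Pfkfb3 makes the allosteric activator of phosphofructokinase and so speeds the pathway. Pfkfb3 (ENSMUSG00000026773.19, chr2:11471433-11554077) was at 100.3, 135 and 130.4 CPM in PBS mice, at 73.0, 113 and 128 CPM in EnzR EVs mice and at 108, 115 and 131 CPM in EnzR EVs + HDL NPs mice. It was lowest in EnzR EVs replicate 1, the library in which Ldha, Slc2a1 and Hif1a were highest, and its log2 fold changes of -0.21 (EnzR EVs against PBS, 95% interval -0.69 to 0.27) and 0.17 (nanoparticles added, against EnzR EVs alone, -0.31 to 0.64) did not pass the test. Among the paralogues, Pfkfb4 was above Pfkfb3 in level per kb, at 66.2, 58.0 and 73.0 CPM per kb as means of the PBS, EnzR EVs and EnzR EVs + HDL NPs groups. It was at 231 ± 58.5, 202 ± 90.6 and 255 ± 52.9 CPM in this order (SD, n = 3). Pfkfb2 was at 14.7 ± 2.12 CPM with PBS, 15.2 ± 2.89 CPM with EnzR EVs and 17.9 ± 1.03 CPM with EnzR EVs + HDL NPs (SD, n = 3), and Pfkfb1 was at 0.706 to 2.21 CPM as group means.

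Gapdh (ENSMUSG00000057666.18, chr6:125161715-125166467) was at 6.86 to 8.64 CPM in PBS mice, at 8.36 to 12.1 CPM in EnzR EVs mice and at 7.82 to 14.1 CPM in EnzR EVs + HDL NPs mice. Pgk1 (ENSMUSG00000062070.12, chrX:106187100-106203699) was at 13.1 to 16.0, 8.23 to 17.6 and 12.9 to 16.9 CPM in the same order. Gapdh rested on 22 to 202 counts and Pgk1 on 15 to 330 counts per library. Both overlapped between all groups, and their 6 log2 fold changes lay between -0.05 and 0.41. Eno1 (ENSMUSG00000063524.13, chr4:150236721-150248879) gave no comparison; of its paralogues, Eno3 was at 2.74 to 10.2 CPM and Eno2 at 0 to 0.176 CPM.

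Ldha (ENSMUSG00000063229.15, chr7:46841475-46855627), the lactate dehydrogenase subunit that favours lactate production, varied most. It was at 503, 306 and 278 CPM in PBS mice, at 1005, 341 and 535 CPM in EnzR EVs mice and at 243, 294 and 289 CPM in EnzR EVs + HDL NPs mice. Its highest library exceeded its lowest 4.13-fold, and its SD of log2 CPM over the 9 libraries, 0.652, was above that of 78.7% of tested genes. The EnzR EVs + HDL NPs mice lay below all EnzR EVs mice, and both of these groups overlapped the PBS mice. With EnzR EVs + HDL NPs against EnzR EVs the log2 fold change was -1.18 (SE 0.361, 95% interval -1.98 to -0.39, 0.440-fold), with an unadjusted p of 0.00774 that ranked 68 of 12553 and an adjusted p of 0.461; the exact permutation p was 0.1. EnzR EVs against PBS gave 0.79 (SE 0.358, -0.01 to 1.58, adjusted p = 0.928), which was 0.28 without EnzR EVs replicate 1, and EnzR EVs + HDL NPs against PBS gave -0.40 (-1.18 to 0.39, adjusted p = 1.00). Ldhb, the subunit that favours pyruvate, was at 8.31 ± 0.916, 6.99 ± 2.30 and 7.44 ± 1.92 CPM (SD, n = 3) in the PBS, EnzR EVs and EnzR EVs + HDL NPs groups, and the log2 ratio of Ldha to Ldhb differed by -1.17 between the groups with and without nanoparticles (6 vesicle-treated mice, exact permutation p = 0.2, groups overlapping).

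**Figure D2:**
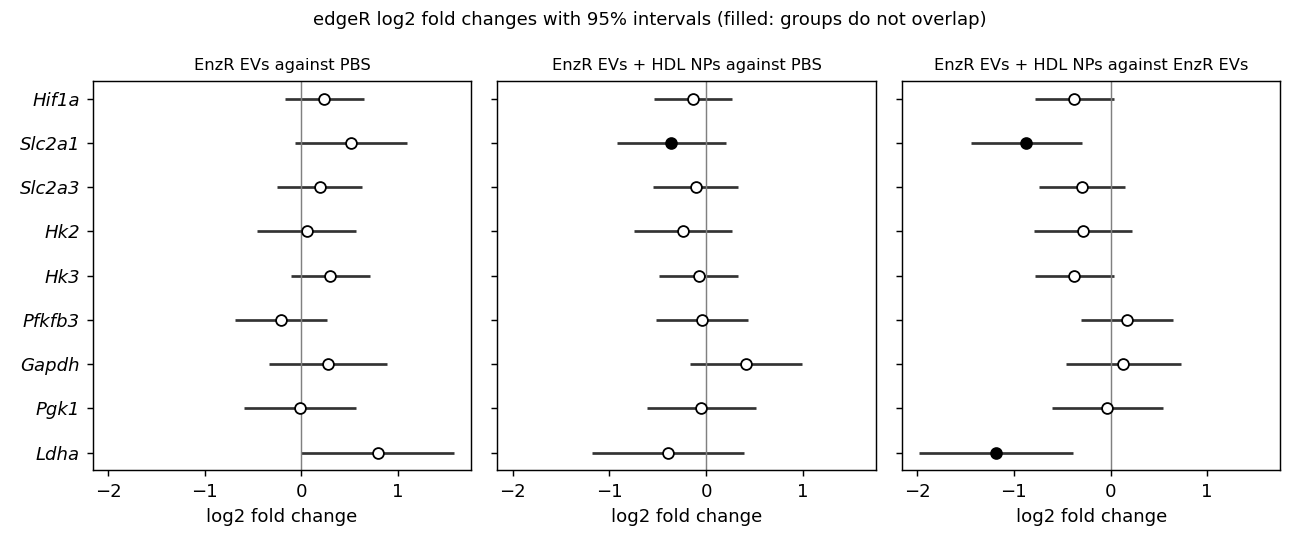
edgeR log2 fold change (points) with its 95% interval (lines) of the 9 tested genes in each comparison; a filled point marks groups that did not overlap. The intervals that exclude 0 are those of Slc2a1 (-0.87) and Ldha (-1.18) in EnzR EVs + HDL NPs against EnzR EVs.

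Set against all genes, few of these values stood out. In EnzR EVs against PBS, 0 of the 9 tested genes and 0.0% of all 12553 had an adjusted p under 0.05 in edgeR (1 gene over the genome, none of these 9, with the replicate number as a block). At an unadjusted p under 0.05, 0 of the 9 were higher and 0 lower, against 1.55% and 1.92% of all genes. With the replicate number as a block, 1 of the 9, Ldha (log2 fold change 0.73, unadjusted p = 0.0344, adjusted p = 0.739), was higher and 0 were lower at this level, against 2.87% and 3.08% of all genes. Within same-numbered mice, EnzR EVs exceeded PBS in 3 of 3 for Ldha, Slc2a1, Hk3 and Gapdh and in 0 of 3 for Pfkfb3. The lowest ratio was 1.02 for Hk3 and 1.05 for Gapdh, and both mice numbered 1 gave Rn45s-rich libraries. The share of all genes with 3 of 3 was not counted. Groups did not overlap for 0 of the 9 in either direction, against 3.43% of all genes higher and 4.52% lower. The log2 fold change was above 0 for 7 of the 9 and for 46.5% of all genes, with a median of 0.24 against -0.03. Scaled by library size only, 5 of the 9 were above 0 and their median was 0.03, against -0.18 for all genes.

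In EnzR EVs + HDL NPs against PBS, 0 of the 9 and 0.0% of all genes passed the adjusted threshold, and 0 of the 9 had an unadjusted p under 0.05, against 1.02% of all genes higher and 1.12% lower. Groups did not overlap for 1 of the 9, Slc2a1, which was lower, as were 6.21% of all genes; 0 of the 9 were higher without overlap, against 6.96%. The log2 fold change was above 0 for 1 of the 9, Gapdh, and for 48.9% of all genes, with a median of -0.11 against -0.01; scaled by library size only it was above 0 for 3.

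In EnzR EVs + HDL NPs against EnzR EVs, 0 of the 9 and 0.0% of all genes passed the adjusted threshold. Ldha and Slc2a1, 2 of the 9, were lower at an unadjusted p under 0.05, against 6.97% of all genes, and 0 were higher, against 3.58%. The same pair was lower without overlap, against 8.58% of all genes, and 0 of the 9 were higher without overlap, against 8.99%. The median log2 fold change was -0.29 for the 9 and 0.03 for all genes. Below 0 were 7 of the 9, while 6633 of all 12553 genes were above 0. Scaled by library size only, the median of the 9 was -0.03, against 0.24 for all genes, and 6 of the 9 were below 0. Without the 3 Rn45s-rich libraries the median of the 9 was -0.09, against 0.01 for all genes. This comparison shares the EnzR EVs mice with the first and the EnzR EVs + HDL NPs mice with the second, so the 3 sets of values are not independent. For any difference among the 3 groups, 0 of the 9 and 0.0% of all genes passed the adjusted threshold, and Ldha (unadjusted p = 0.019) and Slc2a1 (0.021) had an unadjusted p under 0.05, as did 4.47% of all genes; the adjusted p was 0.811 for both.

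The libraries rich in Rn45s moved with these differences. Ldha was at 503 to 1005 CPM in the 3 such libraries and at 243 to 341 CPM in the other 6, and Slc2a1 was at 32.3 to 63.1 CPM against 21.6 to 31.5 CPM. Hk2 (259 to 282 against 161 to 229 CPM) and Hk3 (632 to 834 against 464 to 627 CPM) separated in the same way, PBS replicate 1 included, while Hif1a, Slc2a3, Pfkfb3, Gapdh and Pgk1 overlapped. With the 3 libraries left out, which leaves 1 EnzR EVs mouse assumed to vary like the other groups, the log2 fold change in EnzR EVs + HDL NPs against EnzR EVs was -0.31 for Ldha (unadjusted p = 0.106), -0.49 for Slc2a1 (0.0132), -0.34 for Hif1a (0.0457), -0.09 for Hk3 and 0.12 for Hk2, each with an adjusted p of 0.958 or above. Without EnzR EVs replicate 1 alone it was -0.68 for Ldha and -0.51 for Slc2a1, and without that library and PBS replicate 1, the pair of lowest depth, it was -0.68 for Ldha (unadjusted p = 0.00447) and -0.51 for Slc2a1 (0.00474). The part of ribosomal RNA, depth and the levels of S100a8, S100a9, Mmp8 and Mpo in these values was not tested; they moved together in the same libraries, and no library with nanoparticles was rich in Rn45s.

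**Figure D3:**
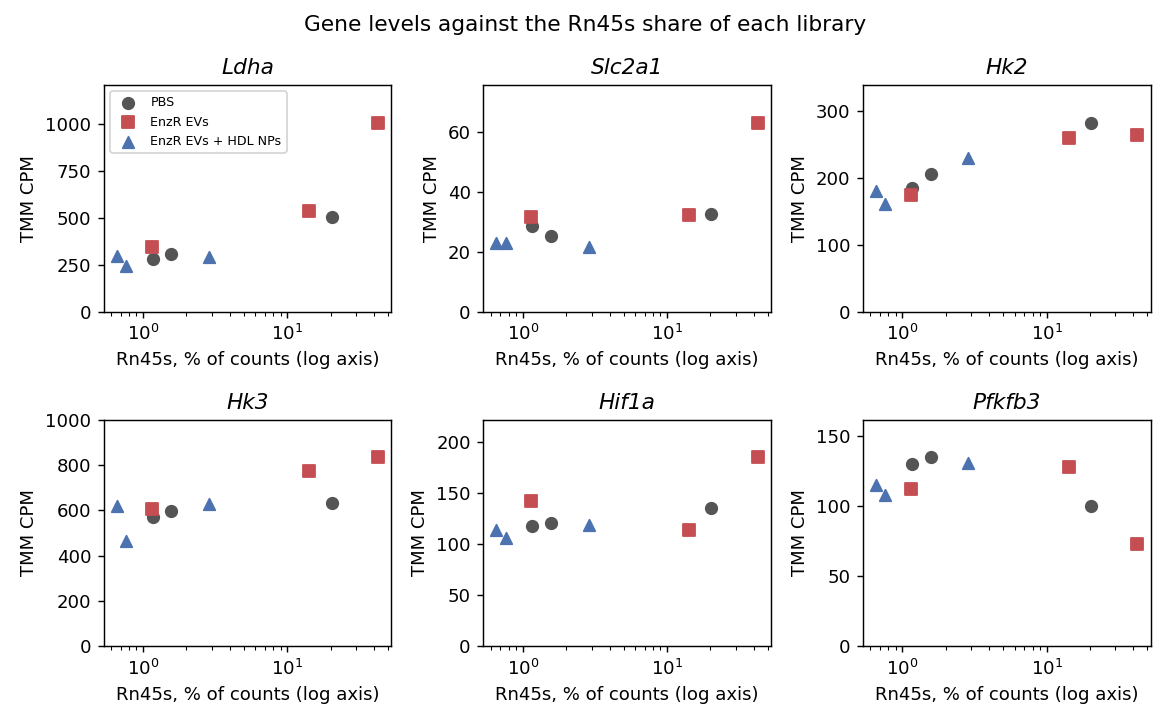
Level in TMM CPM (linear axis from 0) of 6 genes against the share of counts on Rn45s (log axis, %) in each of the 9 libraries, coloured by group. The 3 libraries at 14.2% to 42.7% lie above the other 6 for Ldha, Slc2a1, Hk2 and Hk3, and the highest of them has the lowest level of Pfkfb3.

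The rest of the pathway was read from lists of genes. Of 32 other glycolytic enzymes and carriers, 25 were tested and 0 passed the adjusted threshold in any comparison. With EnzR EVs against PBS, 9 were above 0 and 16 below, with a median log2 fold change of -0.09. Of all 12553 genes, 5833 were above 0 there. The pyruvate kinase gene Pkm, named Pkm2 in the counts, was the one gene of the list whose groups did not overlap there, at 1355, 1200.4 and 1219 CPM with EnzR EVs against 1139, 1038 and 985 CPM with PBS (log2 fold change 0.26, adjusted p = 0.928). With nanoparticles it was at 856, 1097 and 906 CPM, below all EnzR EVs mice (log2 fold change -0.40, SE 0.166, unadjusted p = 0.0354, adjusted p = 0.461). Pfkfb1 (2.21 against 0.706 CPM as group means) and the testis-type Gapdhs (0.776 against 0.146 CPM) were higher with nanoparticles than with EnzR EVs alone without overlap, at unadjusted p = 0.0341 and 0.0366, but both were listed at 0 in EnzR EVs replicate 1. Against PBS, nanoparticle mice had Pfkfb2 higher and the phosphofructokinase gene Pfkl lower without overlap, with log2 fold changes of 0.27 and -0.11 (adjusted p = 1.00).

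Of 13 HIF subunit and oxygen-sensing genes, 12 were tested, 0 passed the adjusted threshold, and the median log2 fold change was -0.01 with EnzR EVs against PBS and, with nanoparticles added, -0.07 against PBS and -0.11 against EnzR EVs alone. Egln2 encodes a prolyl hydroxylase that marks HIF-α for breakdown. It was at 30.4, 34.2 and 36.5 CPM with nanoparticles against 51.0, 38.2 and 59.6 CPM with EnzR EVs alone. The log2 fold change in edgeR was -0.55 (unadjusted p = 0.0205, adjusted p = 0.461). PBS mice were at 48.2, 37.8 and 36.4 CPM for Egln2. PBS replicate 1, EnzR EVs replicate 1 and EnzR EVs replicate 3, the Rn45s-rich libraries, were above all other libraries for this gene. The part of these libraries in the Egln2 value was not tested. Arnt, the partner of HIF-1α, was at 65.6 CPM with nanoparticles against 57.3 CPM with EnzR EVs alone, without overlap. Its log2 fold change was 0.19 (adjusted p = 0.572). Vhl, the ligase subunit that recognises hydroxylated HIF-α, was at 50.1 CPM with nanoparticles against 61.9 CPM with PBS, and Egln1 at 38.1 CPM with EnzR EVs against 42.2 CPM with PBS, both without overlap and with adjusted p = 1.00 and 0.928.

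Of 30 genes known as HIF targets outside glycolysis, 25 were tested and 0 passed the adjusted threshold. With EnzR EVs against PBS, 12 were above 0 and 13 below. With nanoparticles, 5 were above and 20 below against PBS, and 7 above and 18 below against EnzR EVs. The medians were -0.01, -0.12 and -0.19 in this order. Of all 12553 genes, 5833, 6133 and 6633 were above 0 in the same order. The part of scaling and of the Rn45s-rich libraries in these counts was not tested. The iron carrier gene Trf was at 68.0, 139 and 121 CPM with EnzR EVs against 153, 196 and 275 CPM with PBS (log2 fold change -0.92, SE 0.274, unadjusted p = 0.00685, adjusted p = 0.928). Of 8 macrophage markers, summed at 499 to 624 against 593 to 1134 CPM, 7 had a log2 fold change below 0 in this comparison. Vcam1 (172 to 194 against 206 to 401 CPM) and Cd5l (24.2 to 33.5 against 46.0 to 83.6 CPM) were lower without overlap, as Trf was, and their part in its value was not tested. The oxidase gene Ero1l was at 226 against 183 CPM and Fam162a at 7.96 against 5.64 CPM, both higher with EnzR EVs than with PBS without overlap (log2 fold changes 0.31 and 0.51, adjusted p = 0.928). Between nanoparticles and EnzR EVs alone, Fam162a (-0.52) was lower and the histone demethylase gene Kdm3a (0.45) was higher without overlap, each at an adjusted p of 0.461.

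Of 10 pentose phosphate genes, all tested, Rpia, the ribose phosphate isomerase gene, was at 56.6, 57.5 and 63.4 CPM with nanoparticles against 137, 67.3 and 114 CPM with EnzR EVs alone (log2 fold change -0.83, unadjusted p = 0.00951, adjusted p = 0.461), and Pgls was at 34.7 against 61.3 CPM (-0.79, unadjusted p = 0.0134). Pgls was also lower with nanoparticles than with PBS without overlap (-0.43), and Rbks lower with EnzR EVs than with PBS (-0.59). Of 28 genes of the tricarboxylic acid cycle and pyruvate dehydrogenase, 27 were tested, and 5 of the 27 were lower without overlap with nanoparticles than with EnzR EVs alone, against 8.58% of all genes. Among them were Sdhc, a subunit of succinate dehydrogenase (36.1 against 67.2 CPM, log2 fold change -0.88, unadjusted p = 0.0147), Suclg1 (-0.38, 0.0355) and the citrate synthase gene Cs (154 against 206 CPM, -0.42, 0.0434), each at an adjusted p of 0.461. With EnzR EVs against PBS, Suclg1 (0.33) and Pdk3 (0.32) were higher and Pdk2 (-1.04) lower without overlap, and with nanoparticles against PBS, Sdhd (-0.23) was lower. As for Ldha, Rpia, Pgls, Sdhc, Cs and Suclg1 were highest among the EnzR EVs mice in replicates 1 and 3, the Rn45s-rich libraries. PBS replicate 1, also Rn45s-rich, was the highest PBS mouse for each of them. The PBS mice were at 91.7, 61.5 and 59.7 CPM for Rpia and at 58.4, 43.3 and 38.8 CPM for Pgls. They were at 72.3, 38.1 and 40.4 CPM for Sdhc and at 221, 157 and 155 CPM for Cs. The part of these libraries in the values was not tested.

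**Figure D4:**
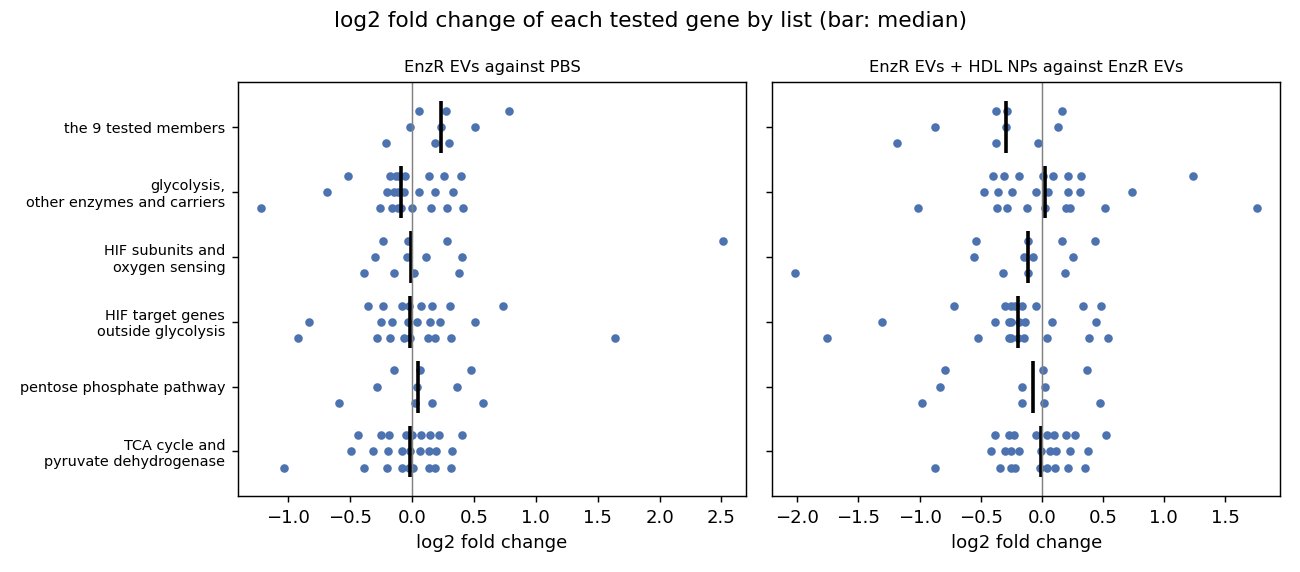
edgeR log2 fold change of each tested gene (points, vertical spread for visibility only) and the median (bar) for the 9 tested genes and the 5 lists, with EnzR EVs against PBS (left) and with EnzR EVs + HDL NPs against EnzR EVs (right). The medians of the 9 genes, 0.24 and -0.29, lie farther from 0 than those of the lists under TMM scaling, which run from -0.09 to 0.05 and from -0.19 to 0.03. With library size only the medians of the 9 genes are 0.03 and -0.03, against -0.18 and 0.24 for all genes.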

How the data were processed

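CD11b+ bone marrow cells of 9 mice, 3 per group, were profiled by stranded total RNA-seq with single-end reads of 75 bases. The deposited values are whole-number counts with no normalization by the authors, who trimmed reads with cutadapt 1.13, removed those matching rRNA, mapped the rest to mm10 by STAR and counted them by HTSeq 0.6.1p1 over UCSC gene models; STAR's version is not given in the sources used here. Totals ranged from 2575776 to 18110561, so a floor of 3 counts is 0.166 to 1.16 CPM, counting error only. From the counts, edgeR 4.0.16 (R 4.3.3) gave TMM CPM, filtered 12553 genes by filterByExpr and fitted a robust quasi-likelihood model to all 9 libraries, with Benjamini-Hochberg adjustment over all genes and a threshold of 0.05. Single genes and ratios were compared by two-sided exact permutation tests, and limma 3.58.1 and DESeq2 1.42.0 were alternatives. The fits were tested on simulated data. Coordinates and lengths are from GENCODE M21 on GRCm38 by symbol.

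The 10 genes and all lists were chosen with earlier results of these data known. Named genes were the 10, their paralogues at the same step, up to 3 genes per list and comparison with the smallest unadjusted p among those whose groups did not overlap, and the 5 genes most like Hif1a. One gene that this rule names is not reported here. Of 182 list genes, 179 were in the counts. Leaving out the 3 Rn45s-rich libraries was chosen after seeing the data. Same-numbered EnzR EVs and PBS libraries deviated together (r = 0.473, 0.492 and 0.131 over genes), both replicates 1 being Rn45s-rich. Different-numbered ones did so too for PBS replicate 3 with EnzR EVs replicate 2 (r = 0.429) and PBS replicate 2 with EnzR EVs replicate 3 (0.156). The others were below 0, down to -0.533. Their numbers were taken as pairs, although these values do not establish pairing. No ratios of same-numbered mice were taken with the EnzR EVs + HDL NPs group (lowest same-numbered r -0.175). The fit with the replicate block nevertheless used the numbers of all 3 groups, that group included. The labels do not say what a number marks. The fit and permutation tests take no account of pairs; values from the fit with the replicate block stand beside them where they change a count. No 2 libraries were duplicates (closest pair, chi-square 4.65 per gene).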

Additional observations from a re-analysis of the deposited data

How the results depend on the processing

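Scaling by library size only moved the log2 fold change of all genes by a median of -0.15 with EnzR EVs against PBS and, with nanoparticles added, by 0.05 against PBS and 0.21 against EnzR EVs alone, and small differences between groups changed sign with it. Over all genes, the number passing in EnzR EVs against PBS was 14 by DESeq2 on 9 libraries, 4 by DESeq2 on 6 libraries, 1990 by limma voom with sample quality weights, 1 without the filter on low counts, 1 with the replicate block, 5 without both libraries of low depth, 10 without the 3 Rn45s-rich libraries and 0 to 2 with each library left out in turn (2 without PBS replicate 1). It was 2, 58 and 10 with nanoparticles added against PBS and 1, 20 and 653 with nanoparticles added against EnzR EVs alone, by DESeq2 on 9 libraries, DESeq2 on 6 libraries and weighted voom, and 1 in the latter with 6 libraries in the fit, without both low-depth libraries or without the 3 Rn45s-rich ones. For any difference it was 15 by DESeq2, 2383 by weighted voom, 2 without both low-depth libraries, 8 without the 3 and 0 to 1 with each library left out (1 without PBS replicate 1). Of the 9 genes, weighted voom alone made calls: Hk3 (0.38, adjusted p = 0.0418) and Ldha (0.85, adjusted p = 0.0178), 2 genes, in EnzR EVs against PBS, 1, Ldha (-0.96, adjusted p = 0.0474), in EnzR EVs + HDL NPs against EnzR EVs, and 3 for any difference; the cause was not tested. Over all alternatives the adjusted p reached 1.00 and 1.00 in the first comparison and 0.958 in the second. These weights are lower for libraries that deviate more from the fit, and the weight of each library is not reported here. Whether they lowered the Rn45s-rich libraries was not tested. With the 3 Rn45s-rich libraries left out, the log2 fold change in EnzR EVs against PBS was 0.23 for Ldha and 0.06 for Hk3.

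Differences near 0 changed sign. In EnzR EVs against PBS, Slc2a3 was at -0.037 by library size, -0.023 without both low-depth libraries, -0.13 without the 3 Rn45s-rich libraries and -0.00016 to 0.34 with each library left out; Hk2 was at -0.14 by library size, -0.15 without the 3 and -0.058 to 0.25 with each left out; Pgk1 was at 0.0078 by DESeq2 on 9 libraries, 0.078 by voom, 0.16 by weighted voom, 0.24 without both low-depth libraries, 0.28 without the 3 and -0.16 to 0.19 with each left out. In EnzR EVs + HDL NPs against PBS, Pfkfb3 was at 0.0031 and Pgk1 at 0.0018 by library size, Pgk1 at 0.014 by weighted voom, and with each library left out Slc2a3 ran from -0.25 to 0.014, Hk3 from -0.15 to 0.063, Pfkfb3 from -0.17 to 0.041 and Pgk1 from -0.18 to 0.036. In EnzR EVs + HDL NPs against EnzR EVs, Hk2 was at 0.12 without the 3, Pfkfb3 at -0.049 by weighted voom and -0.032 without both low-depth libraries, and Pgk1 at 0.14 by library size; with each library left out Pfkfb3 ran from -0.032 to 0.35, Gapdh from -0.16 to 0.29 and Pgk1 from -0.24 to 0.11. Ldha ran from -1.51 to -0.68 and Slc2a1 from -1.07 to -0.51 there, lowest in size without EnzR EVs replicate 1. In EnzR EVs against PBS, they ran from 0.28 to 1.11 and from 0.15 to 0.71, also lowest without that library. With the replicate block, Ldha was at -1.03 and Slc2a1 at -0.83, and no call on the 9 genes changed. Depth limits Gapdh, Pgk1 and Eno1 most, with at most 22 counts of the first pair in EnzR EVs replicate 1.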

Other observations

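The levels of the 9 genes were compared across the 9 libraries as a description; the libraries share groups, depth and the Rn45s difference given above, so no p is attached. Of 36 pairs, 22 had a Pearson r of log2 CPM above 0, with a median of 0.32. Ldha and Slc2a1 were the closest pair (r = 0.931, Spearman's rho = 0.800), and r was 0.738 without the 2 libraries farthest from the median of Ldha. Slc2a1 and Hif1a had r = 0.898 (rho = 0.617) and r = 0.677 without the 2 libraries farthest from the median of Slc2a1. The same removal, by the median of the partner gene, took r with Hif1a from 0.813 to 0.776 for Ldha. The sign changed for Slc2a3 (0.700 to -0.632), Hk3 (0.641 to -0.267), Hk2 (0.475 to -0.060) and Gapdh (0.279 to -0.395). For Pgk1 with Pfkfb3, r went from 0.701 to -0.468, by the median of Pgk1. Pfkfb3 and Hif1a ran opposite (r = -0.814, rho = -0.283), and r was -0.363 without the 2 libraries farthest from the median of Pfkfb3, so that value rested mostly on those libraries.

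The tested genes whose log2 CPM ran most like that of Hif1a over the 9 libraries were Mrpl55 (r = 0.962), Fam40b (0.956), Enah (0.935), Anpep (0.929) and Anapc13 (0.926). All 5 were highest in EnzR EVs replicate 1, as Hif1a was. Without that library r was 0.884, 0.835, 0.748, 0.723 and 0.731 over 8 libraries. Fam40b, Enah and Anpep were at 6.04, 6.04 and 7.68 CPM there and at no more than 2.11 CPM in any other library.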
